A study of Quercus robur with 165 samples.

Results

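ACO1 (MSTRG.24659) and ACO5 (MSTRG.13653) are the aminocyclopropane carboxylate (ACC) oxidases named in the list of genes that the study measured by RT-qPCR in roots of *Quercus robur*, the pedunculate oak. Both identifiers were found in the gene-level tables, so that the data described here are those of 2 of the 35397 genes measured, in all 165 libraries. The list was the study's own choice, made to compare RT-qPCR with these same data, so that its genes are not an independent sample. The files pair the identifiers with neither positions nor names, and no genome position is given here.

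ACC oxidase carries out the last step of ethylene synthesis in plants. ACC synthase makes ACC from S-adenosylmethionine, and ACC oxidase, which needs oxygen, iron and ascorbate, turns ACC into ethylene. In roots ethylene is known as a hormone that slows the elongation of cells, promotes radial swelling and takes part in the response to compacted soil and in senescence. The oxidases form a gene family, and reads that fit more than 1 member were divided among them by the authors' estimation, so that the values of near-identical copies would be uncertain.

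The primers of the authors' RT-qPCR assays are shown because they are the only sequences of the 2 genes used here. The link of each name to its identifier is that of the study's list, and no primer was aligned to a transcript here. All are written 5′ to 3′, with no part set in capitals. The forward primer of ACO1 is 26 bases long with 30.8% G and C, and its reverse primer is 25 bases long with 48.0% G and C. The primers of ACO5 are 19 and 20 bases long with 52.6% and 55% G and C.
ACO1 forward: gtaagtaattccattttgacaatcca
ACO1 reverse: cctacactagaagtgagatccatcc
ACO5 forward: cggcaagttggagaatgtg
ACO5 reverse: gctggccactcgttattgtc

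Polyadenylated RNA was sequenced from roots of oak seedlings in 55 groups, each with 3 libraries that the labels number as biological replicates. Dataset 1 holds 25 groups from seedlings harvested 7 weeks or 8 weeks after sowing in early spring, or 8 weeks after sowing in early summer. Dataset 2 holds 30 groups of a later year, grown from acorns of the same lot. A group shares the part of the root, the length class, the morphology and the type of cultivation. The part is the meristematic zone of the taproot (K in the group codes, 29 groups), the elongation zone of the taproot (SW, 10 groups, Dataset 2) or the lateral root (KB, 16 groups). Taproot length, short (kr), medium (sr) or long (dl), is the class that the lateral roots carry too. Roots were normal (NN, 36 groups), dying (NT, 9 groups), thick (TN, 6 groups) or thick and dying (TT, 4 groups). The paper describes this classing for taproots, so that dying and thick, said of lateral roots here, name the group code only. Whether the lateral roots themselves were dying or thick is not stated. Seedlings grew in containers (kon), where roots that reach the bottom are pruned by air, in rhizotrons, which are clear-walled root chambers (rh), or in a container and, a year later, in a rhizotron to which they were transplanted (krh, Dataset 2). A leading 1, 2 or 3 in a code is the harvest in Dataset 1. In whole pieces of root, fewer cells of a type and less RNA per cell cannot be told apart.

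Expected counts summed to 20037169 to 24793325 per library in Dataset 1 and to 22882800 to 33341476 in Dataset 2. Of the 165 pairs of libraries of the same group, 79 differed by a coefficient of variation beyond counting noise of less than 0.05 (median over all such pairs 0.0537, between groups 0.268), a limit first set with the values known. Merging such libraries left 104 units in place of 165 libraries, and 19 groups were 1 unit. The p-values therefore measure a spread that may be technical, and a call that was lost after merging is given with its merged p. The same limit holds wherever libraries are said to be apart or without overlap. How many of all genes were equally apart was not counted. Near-identity also crossed groups, in 3 pairs of libraries at 0.0259 to 0.0385. Library 2 of long dying taproots from containers (2K_dl_NT_kon) was near libraries 2 and 3 of long normal taproots from rhizotrons (2K_dl_NN_rh). Library 3 of 2K_dl_NT_kon was near library 3 of 2K_dl_NN_rh only. The code and the description of 2 groups conflict. The group 1K_dl_NN_kon is long by its code and short by its description, and K_dl_NT_krh is dying by its code only. Both were used by their codes, and results that rest on these 4 groups were also computed without them. As a check of the root parts, PIN2, an auxin efflux carrier of root tips, had a median of 1.26 TPM over the elongation groups, against 32.9 TPM over the meristematic groups of Dataset 2. The ranges overlapped, at 0.0167 to 8.93 TPM and 0.0933 to 58.5 TPM. The meristematic groups K_sr_TT_rh (0.0933 TPM) and K_dl_NT_kon (6.93 TPM) lay within the range of the elongation groups, so that the check did not separate every group.

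By the median of group means, ACO1 was highest in lateral roots and lowest in the meristematic zone. TPM is the authors' estimate of expression scaled to gene length and library. Over the 55 groups the mean of ACO1 ran between 5.77 TPM in medium normal taproots from containers at 7 weeks (1K_sr_NN_kon) and 232 TPM in long lateral roots from rhizotrons at 8 weeks (2KB_dl_NN_rh), a difference of 40.2-fold. The 3 libraries of the lowest group had 5.95, 5.78 and 5.58 TPM, and those of the highest had 232, 261 and 203 TPM. All 16 lateral groups lay between 67.9 and 232 TPM (median 120 TPM), the 10 elongation groups between 18.9 and 213 TPM (median 88.5 TPM) and the 29 meristematic groups between 5.77 and 178 TPM (median 34.7 TPM). Within Dataset 2, which alone holds elongation zones, the medians were 126 TPM in lateral, 88.5 TPM in elongation and 44.2 TPM in meristematic groups. The matched test of lateral roots against the elongation zone, given below, did not call ACO1. Of the 54 neighbours in the order of group means, 49 had libraries that overlapped. Most adjacent groups were thus not separated by their replicates. Averaged over the groups ACO1 had 76.8 TPM, and 2247 of the 35397 genes had a higher mean.

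ACO5 had the wider range, and its lowest groups were thick or dying. Its group means ran between 0.02 TPM in medium dying elongation zones from rhizotrons (SW_sr_NT_rh) and 180 TPM in long lateral roots from containers at 8 weeks (2KB_dl_NN_kon). The libraries of the lowest group had 0, 0 and 0.06 TPM (0, 0 and 2 expected counts), and those of the highest had 172, 200 and 168 TPM. Of the 54 neighbours in the order, 47 overlapped. A gap in the order fell between 4.98 TPM and 14.2 TPM, with 13 groups below it. All 13 were thick or dying, which is 13 of the 19 thick or dying groups and 0 of the 36 normal groups, and over single libraries 41 of 57 thick or dying ones and 2 of 108 normal ones lay under 7 TPM. This limit was set after the values were seen, so that the counts are a description with no test. Both normal libraries under it came from medium container taproots, K_sr_NN_kon replicate 1 with 6.73 TPM and SW_sr_NN_kon replicate 1 with 1.36 TPM.

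**Figure D1:**
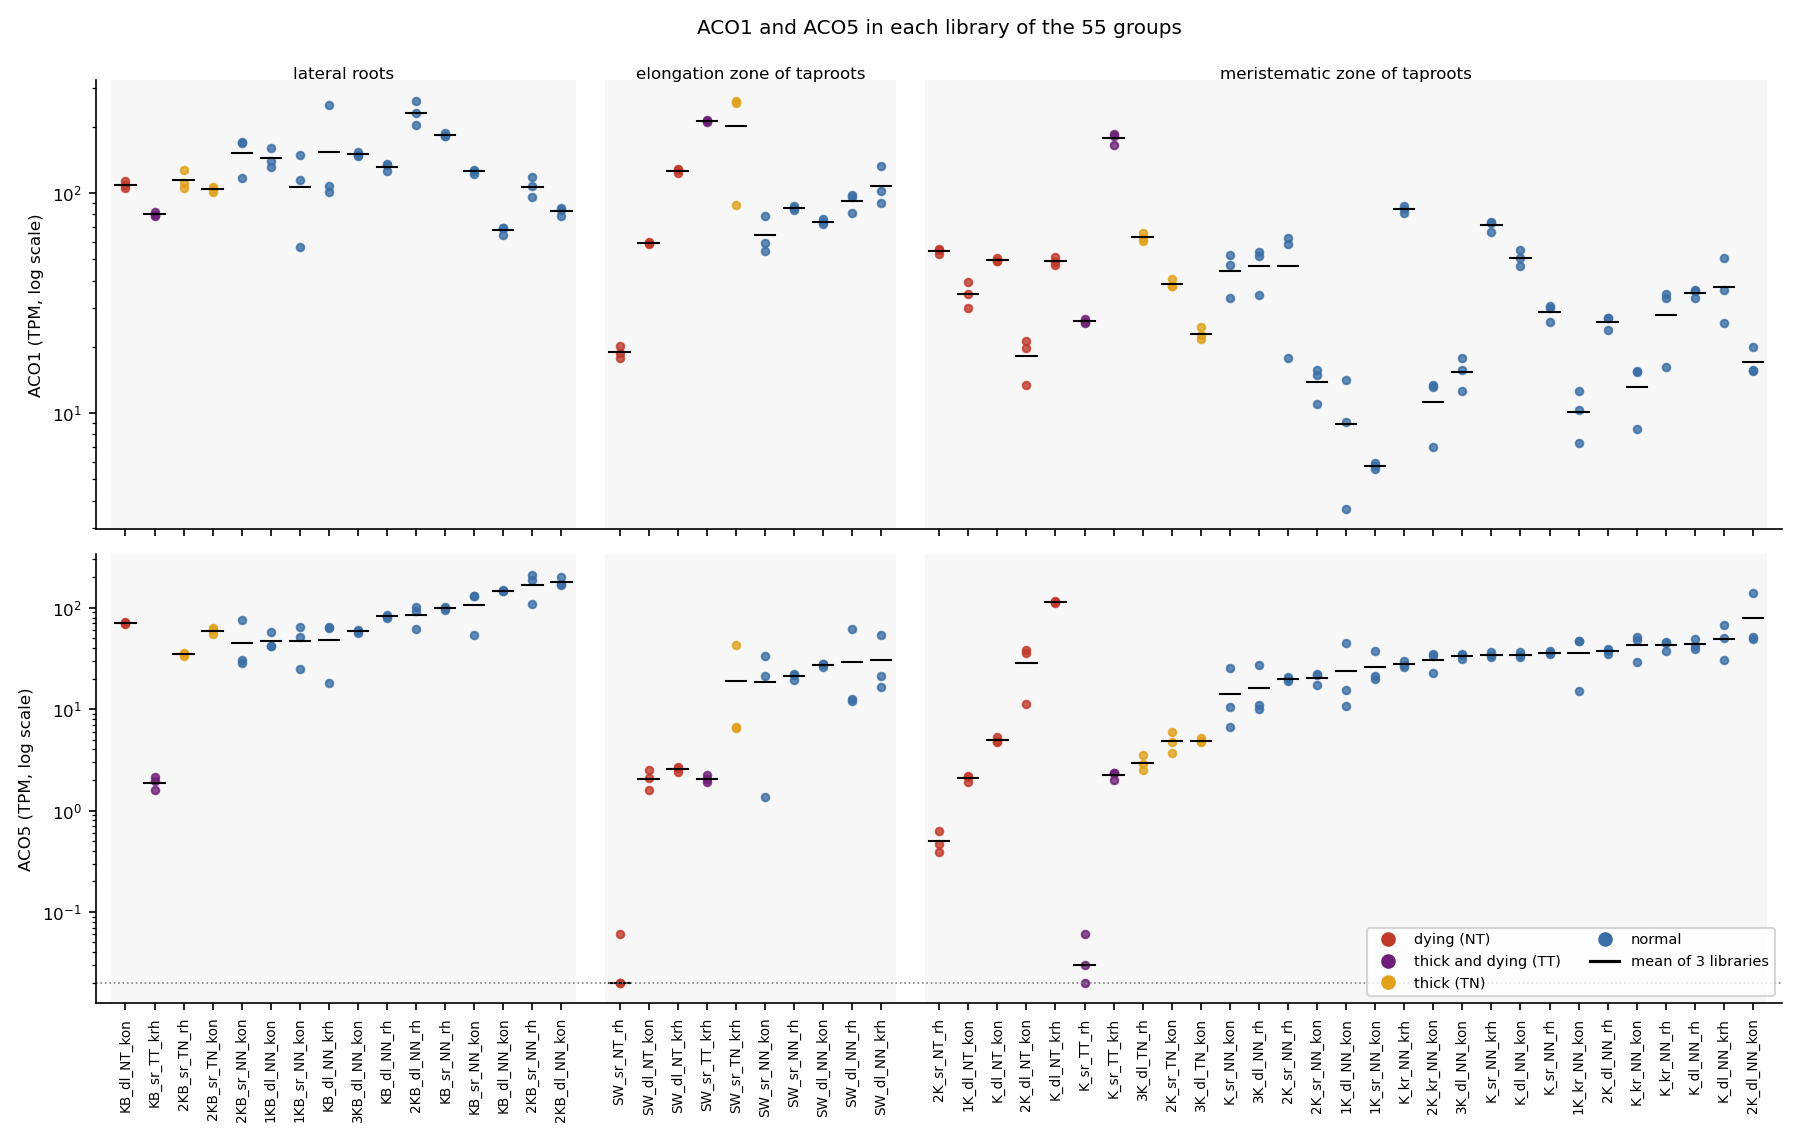
TPM of ACO1 (top) and ACO5 (bottom) on log axes in each of the 165 libraries, by group code within lateral roots, elongation zone and meristematic zone, with the colour giving the morphology and the black line the mean of 3 libraries; values under 0.02 TPM are drawn at 0.02 (dotted line). The 13 groups under the gap in ACO5 are all thick or dying, while the ACO1 of these groups lies within the range of the other groups.

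The groups with low ACO5 were unevenly spread over the root parts. Among taproots 12 of the 15 thick or dying groups lay under the gap, and among lateral roots 1 of 4, the thick and dying lateral roots of transplanted seedlings (KB_sr_TT_krh) with 2.12, 1.95 and 1.58 TPM. Container lateral roots coded as dying (KB_dl_NT_kon) had 70.8, 71.6 and 69.6 TPM of ACO5. The matched group coded as normal (KB_dl_NN_kon) had 146, 146 and 149 TPM. For ACO1 the values were 106, 109 and 114 TPM in the group coded as dying, against 64.5, 69.3 and 69.8 TPM. ACO5 was thus lower and ACO1 higher without overlap in this single pair. No test set these 2 groups against each other, the dying group was 1 unit after merging, and the pair is not in the plot of pairs. The other lateral groups had 59.8, 54.9 and 62.8 TPM when thick and from containers (2KB_sr_TN_kon) and 33.4, 35.0 and 35.9 TPM when thick and from rhizotrons (2KB_sr_TN_rh). In the last of these the 3 most abundant genes took 42.7% of all counts, and the mean of UBQ, a reference gene of the RT-qPCR, was 75.7 TPM, the lowest of all groups. The 3 taproot groups above the gap were 2K_dl_NT_kon with 11.1, 38.6 and 35.6 TPM, K_dl_NT_krh with 116, 112 and 115 TPM and the thick elongation zones of transplanted seedlings (SW_sr_TN_krh) with 43.1, 6.47 and 6.67 TPM. The first of these shares near-identical libraries with a normal group, the second has conflicting labels, and in the third 2 of 3 libraries lay under 7 TPM. In the meristematic zone PIN2 was low beside ACO5: the 8 meristematic groups under the gap had 0.0933 to 21.4 TPM of it, against 29.0 to 64.5 TPM in the 19 normal meristematic groups, and its part in the result was not tested. In the elongation zone PIN2 was higher in the dying group of 3 of 4 pairs, with 8.93 TPM in SW_sr_TT_krh, against 0.23 TPM in SW_sr_TN_krh, 2.59 TPM in SW_dl_NT_kon, against 1.38 TPM in SW_dl_NN_kon, and 2.97 TPM in SW_dl_NT_krh, against 1.94 TPM in SW_dl_NN_krh. It was lower in the fourth pair, with 0.0167 TPM in SW_sr_NT_rh, against 0.313 TPM in SW_sr_NN_rh. UBQ had 109 to 184 TPM in the 13 groups under the gap, against 140 to 187 TPM in the 36 normal groups. It had 109 to 133 TPM, below every normal group, in K_sr_TT_rh, K_sr_TT_krh, SW_dl_NT_krh, KB_sr_TT_krh, SW_sr_NT_rh and SW_sr_TT_krh. The part of this difference in the result was not tested.

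The ratio of the genes joined these differences in a single number. It was computed per library as log2 of (ACO1 + 0.1 TPM) over (ACO5 + 0.1 TPM). The group means of the ratio ran between -2.09 in 1K_sr_NN_kon and 7.68 in the thick and dying taproots from rhizotrons (K_sr_TT_rh), and 37 of 55 groups had more ACO1 than ACO5. The highest value and its place depend on the 0.1 TPM added: as a ratio of mean TPM with nothing added, SW_sr_NT_rh came first with 947 and K_sr_TT_rh second with 871. All 10 elongation groups had more ACO1 than ACO5 (median 3.26), as did 13 of 16 lateral groups (median 1.03) and 14 of 29 meristematic groups (median -0.30). Of the thick or dying groups 17 of 19 had more ACO1 (median 3.98), against 20 of 36 normal groups (median 0.62). In normal meristematic zones the sign of the ratio was mixed, with 2 of 10 groups above 0 in Dataset 1 and 4 of 9 in Dataset 2.

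**Figure D2:**
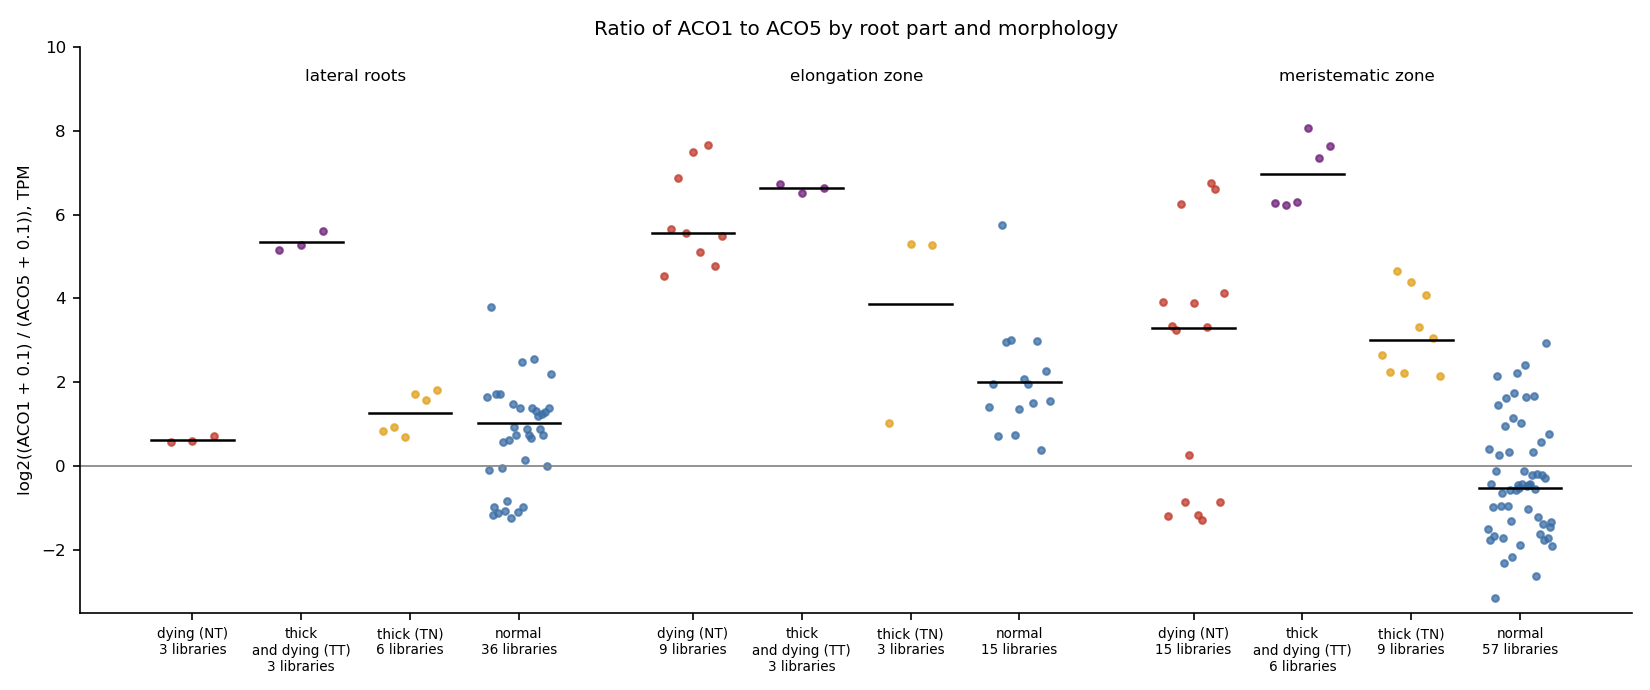
Log2 ratio of ACO1 to ACO5 (0.1 TPM added to each) per library, by root part and morphology; each point is a library, and the black line is the median of the group means. All thick and dying libraries lie above 5, and the normal meristematic libraries lie on both sides of 0 (median of the group means of all meristematic groups -0.30).

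Across the 55 group means the genes were weakly related. On log2 TPM the Pearson correlation was 0.14 and Spearman's 0.24 over 55 groups, which share datasets and partly share depth, so that these are descriptions with no p. Among the 36 normal groups the Pearson correlation was 0.38, and among the 29 meristematic, 10 elongation and 16 lateral groups it was -0.29, 0.54 and 0.14. Within groups the range over 3 libraries exceeded 1.5-fold for both genes in 11 groups. In 6 of these the library farthest from the rest was high in 1 gene and low in the other, and in 5 it was high or low in both. The thick elongation zones of transplanted seedlings show the first kind: replicate 1 had 88.4 TPM of ACO1 and 43.1 TPM of ACO5, and replicates 2 and 3 had 257 and 263 TPM of ACO1 with 6.47 and 6.67 TPM of ACO5. The long lateral roots of transplanted seedlings (KB_dl_NN_krh) show it too, with 252 TPM of ACO1 and 18.1 TPM of ACO5 in replicate 3 and 101 and 108 TPM of ACO1 with 63.5 and 64.1 TPM of ACO5 in replicates 1 and 2.

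**Figure D3:**
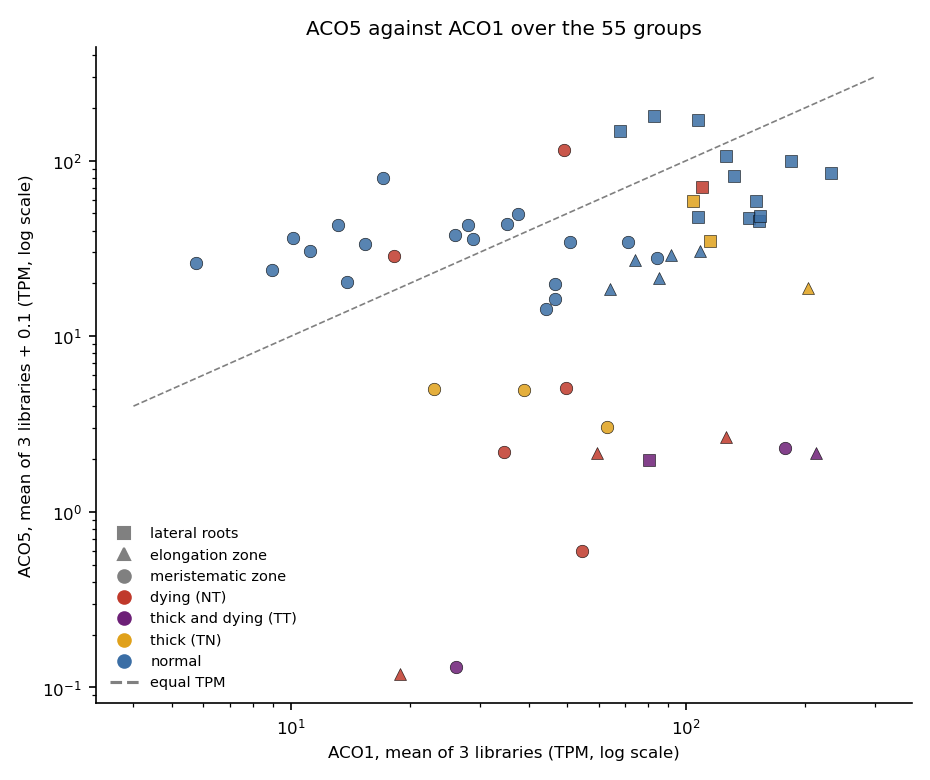
Mean TPM of ACO5 (0.1 TPM added) against mean TPM of ACO1 in the 55 groups on log axes, with the shape giving the root part, the colour the morphology and the dashed line equal TPM. The 13 lowest groups in ACO5 are thick or dying and lie between 18.9 and 213 TPM of ACO1, and the 2 lowest points have 18.9 and 26.1 TPM of ACO1.

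Root parts were compared in matched pairs of groups that shared every other class. In the elongation zone ACO1 was higher and ACO5 lower than in the meristematic zone of matched taproots. ACO1 averaged 103 ± 48.4 TPM in the elongation zone and 59.2 ± 46.9 TPM in the meristematic zone (SD, n = 24 libraries each), and it was higher in all 8 pairs without overlap of libraries. Of the elongation groups in these pairs, SW_dl_NN_kon, SW_dl_NT_kon, SW_dl_NT_krh, SW_sr_NN_rh and SW_sr_TT_krh were 1 unit each after merging. The fitted log2 fold change was 0.81 (standard error, SE, 0.10, adjusted p = 4.5e-09, edgeR with Benjamini-Hochberg adjustment over all genes), where 65.3% of the genes tested were called. ACO5 averaged 16.6 ± 16.5 TPM in the elongation zone and 37.4 ± 34.8 TPM in the meristematic zone, with 4 pairs lower and 4 overlapping. Its log2 fold change was -1.08 (SE 0.31, adjusted p = 0.0025), and after near-identical libraries were merged it was -0.76 (adjusted p = 0.13). The largest difference of a pair was in K_dl_NT_krh, the group with conflicting labels, and without that pair the log2 fold change was -0.66. In the elongation zone the ratio was higher by 2.18 and in 8 of 8 pairs (adjusted p = 1.1e-04, permutation within pairs).

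Lateral roots had more of both genes than the meristematic zone. In Dataset 1 ACO1 averaged 135 ± 48.7 TPM in lateral roots and 21.5 ± 15.8 TPM in the meristematic zone (SD, n = 24 libraries each), and the pairs did not overlap in 8 of 8 cases. The pair of medium normal roots at 7 weeks had 57.0, 149 and 114 TPM in lateral roots, against 5.95, 5.78 and 5.58 TPM in taproots. For ACO1 the log2 fold change was 2.93 (SE 0.20, adjusted p = 2.5e-17, edgeR), in a comparison that called 72.9% of genes. ACO5 averaged 86.5 ± 57.3 TPM in lateral roots and 30.7 ± 26.8 TPM in the meristematic zone, was higher in 6 pairs and overlapped in 2, and its log2 fold change was 1.51 (SE 0.21, adjusted p = 3.7e-08). In lateral roots the ratio was higher by 1.28 and in 6 of 8 pairs (adjusted p = 0.003, permutation), which is a larger rise of ACO1 than of ACO5. The 3 calls held without the pair near-identical across groups (2.91, 1.60 and 1.17) and without the pair with conflicting labels (2.77, 1.59 and 1.04).

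In Dataset 2 both genes were again higher in lateral roots than in the meristematic zone. ACO1 averaged 122 ± 47.0 TPM in lateral roots and 60.7 ± 50.1 TPM in the meristematic zone (SD, n = 21 libraries each), with a log2 fold change of 1.12 (SE 0.22, adjusted p = 3.2e-05, edgeR) where 67.1% of genes were called. It was higher in 6 of 7 pairs, and lower in the thick and dying roots of transplanted seedlings, with 79.0, 79.8 and 82.0 TPM in lateral roots, against 186, 182 and 165 TPM in the meristematic zone. ACO5 had a log2 fold change of 1.30 (SE 0.28, adjusted p = 1.1e-04) and was higher in 5 pairs. The remaining pairs overlapped, and in the thick and dying pair ACO5 was low in both parts, with 2.12, 1.95 and 1.58 TPM in lateral roots and 2.32, 2.35 and 1.99 TPM in the meristematic zone. The ratio differed by -0.35 (adjusted p = 0.41, permutation) and did not pass the threshold.

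Lateral roots had more ACO5 than the elongation zone. ACO5 averaged 79.2 ± 46.7 TPM in lateral roots and 18.6 ± 16.7 TPM in the elongation zone (SD, n = 21 libraries each), and was higher in 5 of 7 pairs without overlap. Its log2 fold change was 1.90 (SE 0.34, adjusted p = 1.4e-05, edgeR), and 54.2% of genes were called. The dying roots from containers had the largest difference as a ratio of means. They had 70.8, 71.6 and 69.6 TPM in lateral roots, against 2.49, 2.10 and 1.59 TPM in the elongation zone. ACO1 had a log2 fold change of 0.31 (SE 0.16, adjusted p = 0.089), with 4 pairs higher and 2 lower. The ratio was lower in lateral roots in 7 of 7 pairs, with a difference of -1.87 (adjusted p = 9.2e-05, permutation, and 0.068 after merging).

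Dying roots were compared with matched roots that were not dying. In the meristematic zone of Dataset 1, ACO5 was lower in dying taproots in 3 of 3 pairs without overlap. Long container taproots at 7 weeks had 2.20, 1.93 and 2.14 TPM of ACO5 when dying, against 10.7, 15.3 and 45.4 TPM when normal. Medium rhizotron taproots at 8 weeks had 0.47, 0.63 and 0.39 TPM when dying, against 18.9, 19.7 and 20.5 TPM when normal. The pair with libraries near-identical across groups, long container taproots at 8 weeks, differed least as a ratio of means. Its libraries had 11.1, 38.6 and 35.6 TPM when dying and 139, 51.1 and 49.6 TPM when normal. For ACO5 the log2 fold change was -3.18 (SE 0.52, adjusted p = 0.0042, edgeR), in a comparison that called 10.2% of genes, and it was -4.21 (adjusted p = 1.5e-04) without that pair. ACO1 had a log2 fold change of 0.85 (SE 0.28, adjusted p = 0.062), and only the 7-week pair was free of overlap, with 34.8, 29.9 and 39.3 TPM when dying, against 3.68, 14.1 and 9.10 TPM when normal. In dying taproots the ratio was higher by 4.13 in 3 of 3 pairs (adjusted p = 9.2e-04, permutation). The call of ACO5 was lost without any 1 of the replicates (adjusted p = 0.14, 0.055 and 0.10 without replicate 1, 2 and 3) and without the pair with conflicting labels (adjusted p = 0.14), at log2 fold changes of -2.97 to -3.52.

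In the elongation zone of Dataset 2 all 4 pairs had less ACO5 in dying roots. The long container roots had 2.49, 2.10 and 1.59 TPM when dying, against 27.6, 28.0 and 25.9 TPM when normal. Long roots of transplanted seedlings had 2.64, 2.40 and 2.67 TPM when dying, against 53.6, 21.1 and 16.5 TPM when normal. The thick and dying roots of transplanted seedlings had 1.92, 2.22 and 2.03 TPM, against 43.1, 6.47 and 6.67 TPM in thick roots that were not dying. In each pair the highest dying library was below the lowest of the other group. Medium rhizotron roots gave 2 expected counts of ACO5 in all 3 dying libraries together, against 1822 in the normal ones, a ratio of normal over dying of 914 with a 95% interval of 253 to 7555 that covers counting error only. Over the 4 pairs ACO5 averaged 1.68 ± 1.04 TPM in dying roots and 24.4 ± 13.4 TPM in the others (SD, n = 12 libraries each), and the log2 fold change was -4.14 (SE 0.47, adjusted p = 5.4e-07, edgeR) where 40.9% of genes were called. After merging it was -4.24 (adjusted p = 0.11), when the 4 dying groups and 2 of the others were 1 unit each.

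ACO1 was lower in dying elongation zones in 2 of the 4 pairs. In medium rhizotron roots it had 20.2, 17.9 and 18.7 TPM when dying, against 87.0, 85.5 and 83.4 TPM when normal, and in long container roots 59.95, 59.6 and 58.6 TPM when dying, against 73.7, 72.6 and 75.9 TPM. The pairs of transplanted seedlings overlapped. The log2 fold change of ACO1 was -0.52 (SE 0.26, adjusted p = 0.11, edgeR), and without the pair of thick roots, left out after the values were seen since 1 library stands apart, it was -0.76 (adjusted p = 0.047). The ratio was higher in dying roots by 3.76 in 4 of 4 pairs (adjusted p = 9.2e-05, permutation, and 0.12 after merging). Its size was 2.70 with 1 TPM added in place of 0.1 TPM and 4.29 on expected counts.

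The meristematic zone of long taproots in Dataset 2 gave opposite pairs. In containers ACO5 had 5.30, 4.85 and 4.78 TPM in dying taproots, against 36.8, 34.1 and 32.4 TPM in normal ones. In transplanted seedlings it had 116, 112 and 115 TPM in the group coded as dying, against 67.9, 30.4 and 49.8 TPM in normal ones. The libraries of both pairs were apart, in opposite directions, and the fold change over both pairs was -0.79 (log2, SE 0.67, adjusted p = 0.35, edgeR) where 49.9% of genes were called. A test of the difference between transplanted and container seedlings, added after the values were seen, gave a log2 difference of 3.91 (SE 0.31, adjusted p = 1.1e-05), among 24.4% of genes called, and an adjusted p of 0.98 after merging. The transplanted group is the one whose description does not call it dying, and in the container pair alone the log2 fold change of ACO5 was -2.84. Both groups of that pair were 1 unit each after merging, so that no p is given for it. ACO1 overlapped in both pairs, with a log2 fold change of 0.18 (SE 0.13, adjusted p = 0.28), and of -0.14 in the container pair alone, where the libraries overlapped. Its own difference between transplanted and container seedlings was 0.66 (SE 0.17, adjusted p = 0.017, and 1.0 after merging).

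The effect of dying on ACO5 was also compared between the zones of long taproots. As log2 fold changes, elongation minus meristematic zone, they differed by -2.86 (SE 0.74, adjusted p = 0.0064, edgeR), in a test that called 25.2% of genes. Its size rested on the group with conflicting labels, and with that pair its adjusted p was 0.39 after merging and 0.052 to 0.070 without each replicate. Without the pair it was -1.01, from 4 groups that were 1 unit each, so that no p is given. For ACO1 this difference was -0.21 (SE 0.20, adjusted p = 0.50), and -0.34 in the same 4 groups without the pair.

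Thick taproots had less ACO5 and more ACO1 than normal ones in the meristematic zone of Dataset 1, in 3 of 3 pairs for each gene and without overlap. ACO5 averaged 4.22 ± 1.14 TPM in thick taproots and 23.3 ± 9.37 TPM in normal ones (SD, n = 9 libraries each), and ACO1 averaged 41.6 ± 17.5 TPM in thick taproots and 25.3 ± 17.0 TPM in normal ones. Medium container taproots at 8 weeks had 5.96, 4.76 and 3.72 TPM of ACO5 when thick, against 17.3, 22.1 and 21.5 TPM when normal, and 37.7, 40.6 and 38.0 TPM of ACO1 when thick, against 11.02, 14.9 and 15.7 TPM when normal. Fitted log2 fold changes were -2.48 for ACO5 (SE 0.20, adjusted p = 4.7e-08, edgeR) and 0.85 for ACO1 (SE 0.11, adjusted p = 1.1e-05), and 45% of genes were called. In thick taproots the ratio was higher by 3.21 in 3 of 3 pairs (adjusted p = 9.2e-04, permutation). These 3 calls held under every alternative run.

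Lateral roots coded as thick did not give a shared direction in Dataset 1. ACO5 had 33.4, 35.0 and 35.9 TPM in thick rhizotron roots, against 108, 188 and 211 TPM in normal ones, while thick container roots had 59.8, 54.9 and 62.8 TPM, against 76.1, 30.7 and 28.8 TPM in normal ones. The log2 fold changes were -0.63 for ACO5 (SE 0.36, adjusted p = 0.23, edgeR) and 0.11 for ACO1 (SE 0.22, adjusted p = 0.76), with 21.5% of genes called. The rhizotron pair holds the thick group in which 3 genes took 42.7% of counts. Over all genes 2212 were called higher and 2896 lower. On library size alone 478 were higher and 3641 lower, with the median of all genes at -0.28, and ACO1 had a log2 fold change of -0.15.

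Thick and dying taproots had little ACO5 in the meristematic zone. In transplanted seedlings it had 2.32, 2.35 and 1.99 TPM, against 34.1, 32.9 and 36.2 TPM in normal taproots. In rhizotrons 3 expected counts were found in all 3 thick and dying libraries together, against 3104 in the normal ones, a ratio of normal over thick and dying of 1055 with a 95% interval of 361 to 5119 for counting error. The fitted log2 fold change of ACO5 was -5.20 (SE 0.68, adjusted p = 3.9e-05, edgeR), a value that depends on the prior count of the fit in the rhizotron pair, and 60.9% of genes were called. ACO1 was higher in the transplanted pair, with 186, 182 and 165 TPM in thick and dying taproots, against 66.7, 73.3 and 73.9 TPM in normal ones, and overlapped in the rhizotron pair with 26.7, 26.0 and 25.7 TPM, against 25.9, 30.6 and 30.2 TPM. Its log2 fold change was 0.57 (SE 0.29, adjusted p = 0.11). The ratio was higher in both pairs, by 6.61 on average (adjusted p = 0.012, permutation), by 4.90 with 1 TPM added in place of 0.1 TPM and by 7.22 on expected counts. Merging left 9 arrangements, whose smallest p of 0.11 was reached.

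**Figure D4:**
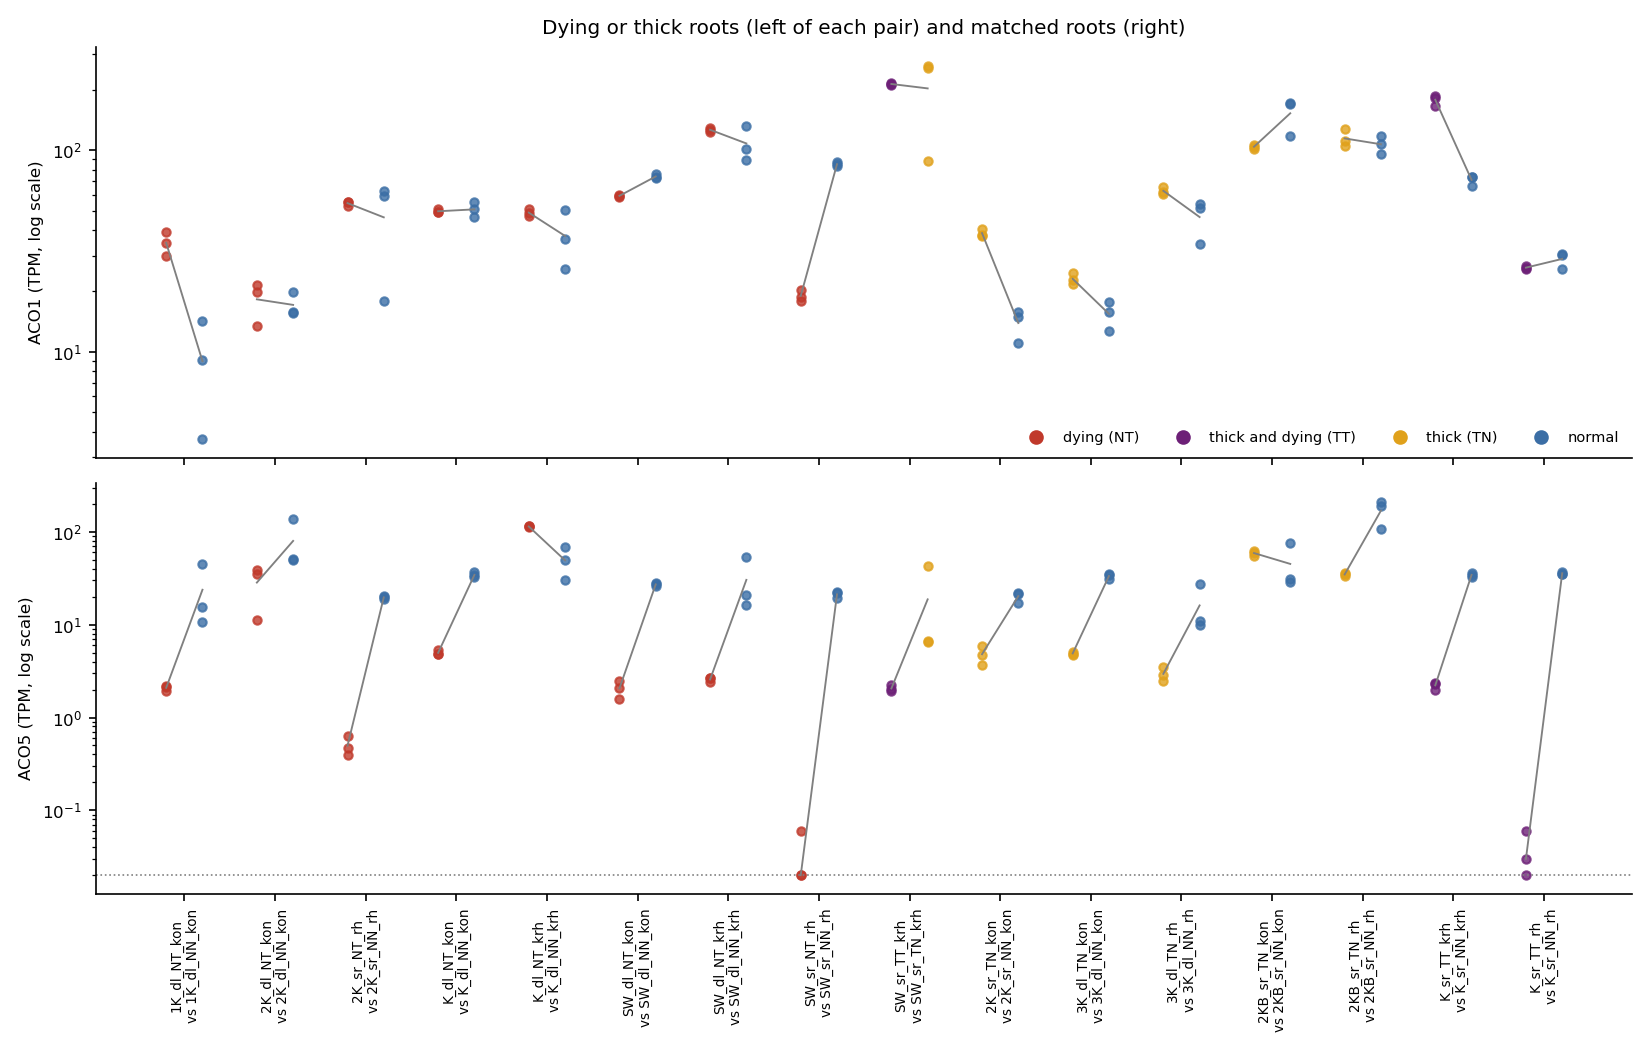
TPM of ACO1 (top) and ACO5 (bottom) on log axes in the libraries of 16 matched pairs, with the dying or thick group left and the matched group right in each pair and a line between their means; values under 0.02 TPM are drawn at 0.02 (dotted line). ACO5 is lower without overlap in 14 of the pairs, higher in K_dl_NT_krh and overlapping in 2KB_sr_TN_kon, while ACO1 runs in both directions. How many of all genes are apart in these pairs was not counted.

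No test of the length classes of normal taproots passed the threshold for a single gene. Long against short taproots gave log2 fold changes of 0.04 for ACO1 (SE 0.29, adjusted p = 0.93, edgeR) and 0.26 for ACO5 (SE 0.51, adjusted p = 0.74) in Dataset 1, where 30.9% of genes were called. This comparison holds 1K_dl_NN_kon, which is short by its description. Without that pair the log2 fold changes were 0.40 for ACO1 and 1.27 for ACO5, and neither was called. In the pair left, ACO5 averaged 79.9 TPM in long taproots (2K_dl_NN_kon) and 30.4 TPM in short ones (2K_kr_NN_kon), without overlap. In Dataset 2 they were 0.19 for ACO1 (SE 0.32, adjusted p = 0.77) and 0.05 for ACO5 (SE 0.21, adjusted p = 0.91), where 2.12% of genes were called. In this dataset the pairs of ACO1 were opposite. Container taproots had 46.5, 50.9 and 55.2 TPM when long, against 15.6, 15.4 and 8.45 TPM when short, and transplanted seedlings had 50.6, 36.4 and 25.7 TPM when long, against 81.2, 84.8 and 87.2 TPM when short.

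In Dataset 1 the log2 fold change of ACO5 in long against medium taproots was 0.88 (SE 0.34, adjusted p = 0.42, edgeR) and that of ACO1 was -0.04 (SE 0.25, adjusted p = 0.97), where 0.0249% of genes were called. Without the pair near-identical across groups they were 0.81 and 0.34, and without the pair with conflicting labels 1.44 and -0.30, all short of the threshold. In Dataset 2 it was 0.70 for ACO5 (SE 0.21, adjusted p = 0.070) and -0.19 for ACO1 (SE 0.15, adjusted p = 0.57), and 3.16% of genes were called. The ratio of ACO1 to ACO5 differed by -0.89 in long against medium taproots there (adjusted p = 0.033, permutation, and 0.31 after merging), in 2 of 3 pairs. In lateral roots of Dataset 1, where 4.63% of genes were called, the log2 fold changes were 0.16 for ACO1 (SE 0.23, adjusted p = 0.74) and 0.20 for ACO5 (SE 0.40, adjusted p = 0.82). The 8-week lateral pairs ran in opposite directions by cultivation: in rhizotrons long roots had 232, 261 and 203 TPM of ACO1, against 107, 96.2 and 118 TPM in medium roots, and in containers 79.0, 84.1 and 85.3 TPM, against 117, 171 and 169 TPM in medium roots. ACO5 had the opposite order in both, with 93.7, 101 and 62.0 TPM in long rhizotron roots, against 108, 188 and 211 TPM in medium ones, and 172, 200 and 168 TPM in long container roots, against 76.1, 30.7 and 28.8 TPM in medium ones.

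Cultivation in rhizotrons was set against containers. In the meristematic zone of Dataset 1 ACO1 was higher in rhizotrons in 4 of 4 pairs without overlap, and averaged 45.5 ± 17.9 TPM in rhizotrons and 17.3 ± 4.10 TPM in containers (SD, n = 12 libraries each). Long normal taproots sown in early summer had 34.3, 51.6 and 53.8 TPM in rhizotrons, against 12.7, 15.8 and 17.7 TPM in containers. For ACO1 the log2 fold change was 1.41 (SE 0.15, adjusted p = 2.8e-06, edgeR), where 16.5% of genes were called. ACO5 was lower in rhizotrons in 3 pairs and overlapped in 1, with a log2 fold change of -0.65 (SE 0.19, adjusted p = 0.024). The ratio was higher by 2.02 in 4 of 4 pairs (adjusted p = 9.2e-05, permutation). The call of ACO5 was lost after merging (adjusted p = 0.30), without replicate 2 or 3 (adjusted p = 0.21 and 0.15) and without the pairs near-identical across groups (-0.53, adjusted p = 0.064).

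The other comparisons of rhizotrons gave no call of either gene that held after merging. In lateral roots of Dataset 1 ACO1 had a log2 fold change of 0.65 (SE 0.21, adjusted p = 0.035, edgeR) among 21.3% of genes called, with 1 pair higher and 2 overlapping, and the call was lost after merging (adjusted p = 0.24) and without any 1 replicate (0.10 to 0.22). The comparison holds 2KB_sr_TN_rh, where 3 genes took 42.7% of counts: its ACO1 was 114 TPM, against 104 TPM in 2KB_sr_TN_kon, with overlap, but 180.4 CPM, against 96.5 CPM, on the TMM scale. On library size alone the log2 fold change of ACO1 was 0.42 (adjusted p = 0.21), with 777 genes called higher and 3230 lower, against 2606 and 2692 with TMM. ACO5 there was higher in 1 pair and lower in 2 by TPM, with a log2 fold change of 0.24 (SE 0.37, adjusted p = 0.70). Of the lower pairs, that of 2KB_sr_TN_rh and 2KB_sr_TN_kon had 53.45 CPM, against 51.85 CPM, on the TMM scale. In the meristematic zone of Dataset 2 the log2 fold changes were -0.04 for ACO1 (SE 0.23, adjusted p = 0.96) and 0.61 for ACO5 (SE 0.22, adjusted p = 0.12), where 5.18% of genes were called. ACO1 was higher in short rhizotron taproots, with 34.6, 33.2 and 16.2 TPM, against 15.6, 15.4 and 8.45 TPM in containers, and lower in long and medium ones. In the elongation zone of Dataset 2 ACO1 rose by a log2 fold change of 0.37 (SE 0.09, adjusted p = 0.030) in 2 of 2 pairs, with 9.65% of genes called, a call that was lost after merging (adjusted p = 0.96) and without replicate 2 or 3 (0.24 and 0.22). ACO5 there had a log2 fold change of 0.23 (SE 0.58, adjusted p = 0.83). Its sign rested on replicate 1, in which SW_sr_NN_kon had 1.36 TPM and SW_dl_NN_rh 62.0 TPM, and without that replicate it was -0.74 (adjusted p = 0.038).

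Transplanted seedlings were set against container seedlings in 4 pairs of the meristematic zone of Dataset 2. By the paper the transplanted seedlings were older plants of an earlier sowing, and the container seedlings were newly sown from stored acorns. Transplanting therefore cannot be told apart from plant age, sowing year and acorn age. The log2 fold changes were 0.60 for ACO1 (SE 0.24, adjusted p = 0.082, edgeR) and 1.19 for ACO5 (SE 0.49, adjusted p = 0.083), where 22.6% of genes were called. ACO1 was higher in 2 pairs and overlapped in 2. Short taproots had 81.2, 84.8 and 87.2 TPM in transplanted seedlings, against 15.6, 15.4 and 8.45 TPM in containers, the largest difference of the 4 pairs. ACO5 was higher in 2 pairs, the largest difference being that of the group with conflicting labels, and without this pair its log2 fold change was 0.30 (adjusted p = 0.51).

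Harvests were compared within Dataset 1. Between 8 and 7 weeks after sowing in early spring the log2 fold changes over 6 pairs were 0.14 for ACO1 (SE 0.18, adjusted p = 0.69, edgeR) and 0.96 for ACO5 (SE 0.36, adjusted p = 0.083), where 10.7% of genes were called. ACO5 was higher at 8 weeks in 3 pairs, among them long lateral roots with 172, 200 and 168 TPM at 8 weeks, against 41.7, 42.4 and 57.4 TPM at 7 weeks, and overlapped in 3. ACO1 was higher in 2 pairs and lower in 2. Without the pair near-identical across groups the log2 fold changes were 0.50 for ACO5 and 0.31 for ACO1, and without the pair with conflicting labels 0.76 and -0.014, none of them called.

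Roots sown in early summer had less ACO5 than those sown in early spring, both at 8 weeks. ACO5 averaged 36.0 ± 19.2 TPM after summer sowing and 99.1 ± 68.9 TPM after spring sowing (SD, n = 9 libraries each), and was lower in 3 of 3 pairs without overlap. Long container lateral roots had 58.7, 56.7 and 60.3 TPM after summer sowing, against 172, 200 and 168 TPM after spring sowing. The log2 fold change was -1.41 (SE 0.21, adjusted p = 9.0e-05, edgeR), in a comparison that called 32% of genes. ACO1 was higher in 2 pairs and overlapped in 1, with a log2 fold change of 0.49 (SE 0.11, adjusted p = 0.0022, and 0.10 after merging, 0.058 without replicate 2). The ratio was higher after summer sowing by 1.86 in 3 of 3 pairs (adjusted p = 0.0016, permutation, and 0.051 without replicate 2). Without the pair near-identical across groups the calls held, at -1.45 for ACO5, 0.38 for ACO1 and 1.70 for the ratio.

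**Figure D5:**
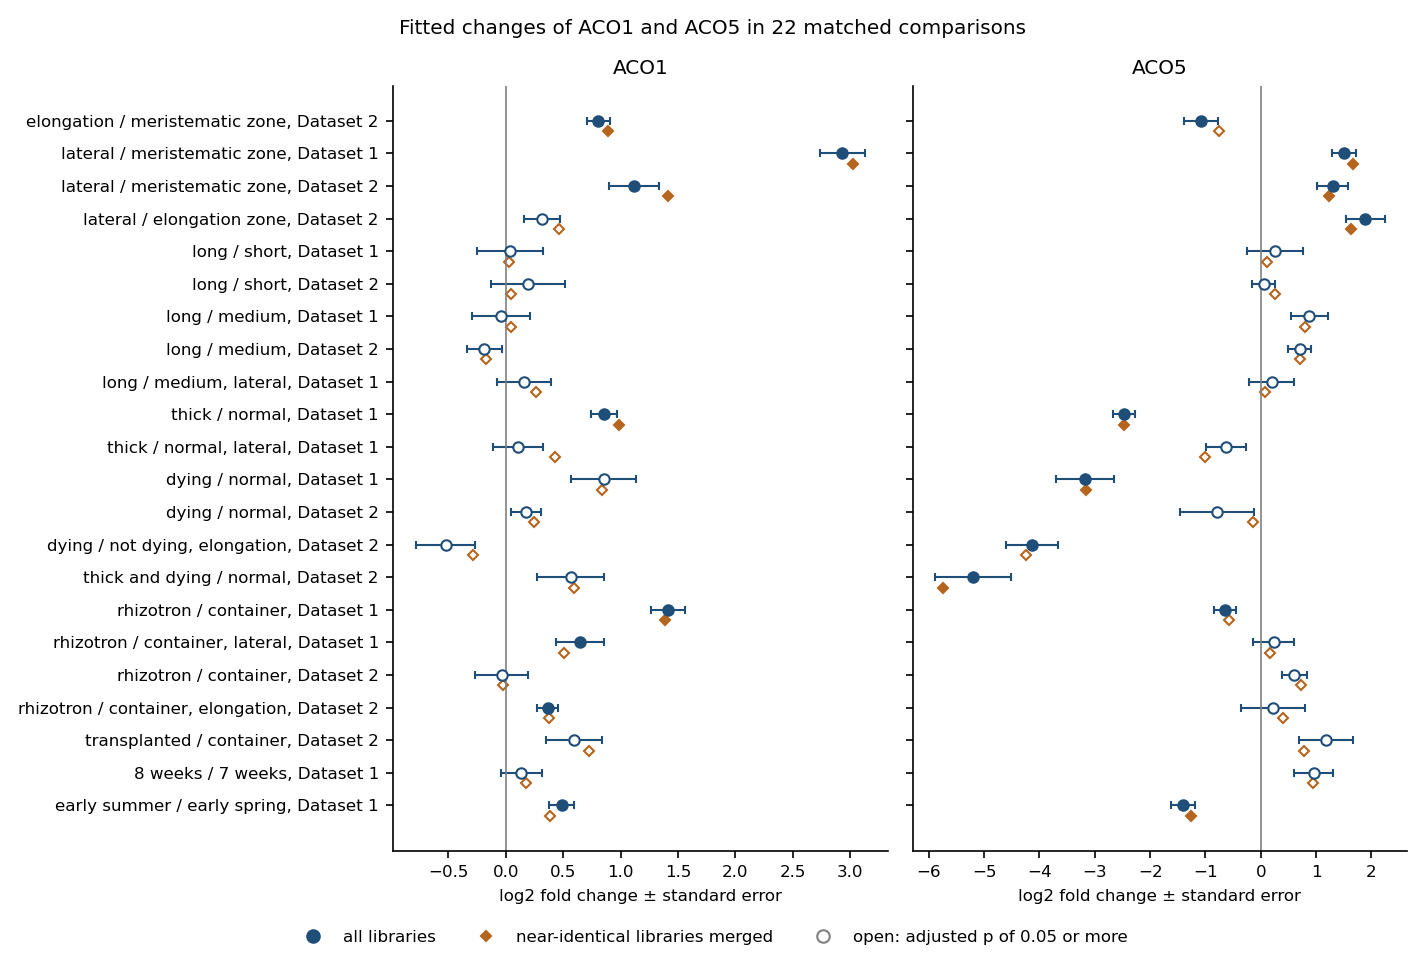
Fitted log2 fold change of ACO1 (left) and ACO5 (right) in the 22 comparisons, with the first class named over the second; circles with standard errors are fits to all libraries, diamonds are fits after near-identical libraries were merged, and open symbols have an adjusted p of 0.05 or more. Called changes of ACO1 are all above 0, and those of ACO5 lie on both sides.

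Counted over these 22 comparisons and the test of zones, ACO1 was called in 8 of 23, always higher in the class named first, and ACO5 in 11 of 23, with 3 higher and 8 lower. The ratio was called in 10 of 22, with 8 higher and 2 lower. The comparisons share groups and are not independent of each other. The share of all genes called in a single test ran between 0.0249% (long against medium taproots) and 72.9% (lateral roots against the meristematic zone), both in Dataset 1. Calls per gene were not counted for the other genes. The counts therefore describe ACO1 and ACO5 and do not set them apart from other genes. The calls that held under every alternative were 5 of ACO1 (elongation against meristematic zone, lateral roots in both datasets, thick taproots and rhizotrons in Dataset 1), 6 of ACO5 (the 3 comparisons of lateral roots, thick taproots, thick and dying taproots and summer sowing) and 5 of the ratio.

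The other 7 genes of the RT-qPCR list were set beside ACO1 and ACO5. They are CERD, G3OX, WRKY, named for a family of transcription factors, GST, named for the glutathione transferases that conjugate toxic compounds, PIN2, GERL1 and PCC13. In thick taproots 2 rose and 3 fell of the 7, where 45% of all genes were called, and in thick and dying taproots 2 rose and 4 fell, where 60.9% were. In dying taproots of Dataset 1 1 gene fell, where 10.2% of all genes were called, and in dying elongation zones 1 rose and 2 fell of the 6 tested, where 40.9% were. Against the meristematic zone, 4 rose and 3 fell in the elongation zone, where 65.3% were called. The genes were also compared over the 55 group means of log2 CPM, which are counts scaled to the library total adjusted by TMM. ACO1 was most like CERD of these genes (Pearson 0.71) and least like EF, the second reference gene of the RT-qPCR (-0.74). ACO5 was most like PIN2 (0.56) and least like GERL1 (-0.51). G3OX, under the limit of 1 TPM as a median over groups, was left out of this measure.

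Among all 21422 genes that passed the same limits, the patterns closest to ACO1 over the 55 groups were those of MSTRG.15435 (Pearson 0.93, Spearman 0.93) and MSTRG.21022 (Pearson 0.93, Spearman 0.92). Closest to ACO5 were MSTRG.31072 (Pearson 0.92, Spearman 0.74) and MSTRG.27834 (Pearson 0.92, Spearman 0.90). By Spearman's correlation MSTRG.4557 and MSTRG.15435 came first for ACO1, and MSTRG.27834 and MSTRG.30275 for ACO5, and MSTRG.31072 was at place 80. These identifiers are not annotated in the tables used here. ACO5 itself was at place 8459 for ACO1 by Pearson's correlation (0.15).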

How the data were processed

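RNA of 165 libraries in 55 groups of 3 was measured. The authors trimmed stranded paired reads, removed ribosomal reads with Bowtie 2, aligned the rest with STAR to the oak genome, assembled transcripts with StringTie and estimated abundance with RSEM. They deposited RSEM expected counts, which are estimated counts and not normalised, and TPM values, scaled by the authors to gene length and library. The members and lists were chosen with earlier results of these data known.

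Expected counts were rounded and tested with edgeR 4.0.16 in R 4.3.3: genes were filtered with filterByExpr (minimum count 10), scaled by TMM and fitted with the matched pair as covariate, by the quasi-likelihood test with Benjamini-Hochberg adjustment over all genes tested, at a threshold of 0.05. Groups were paired by codes that differed in the compared class only. The log2 ratio (0.1 TPM added) was tested two-sided by permutation within pairs, exact up to 200000 arrangements and otherwise with 100000 shuffles (smallest p 1e-05), adjusted over 22 comparisons. Fold changes of TPM means are not fitted values. Counting intervals are exact at 95% and cover counting error only. Genes named are ACO1 and ACO5, the reference genes UBQ and EF, the other RT-qPCR genes and the 2 genes most alike by Pearson's correlation (log2 CPM with a prior count of 1, at least 10 counts in the 3 libraries of a group, a median of at least 1 TPM). Other settings tried included a test with DESeq2 1.42.0, a fit of log2 TPM with limma 3.58.1, 1 fit over all groups, library size alone, no filter, other pseudocounts, merged near-identical libraries, a replicate block and leaving out each replicate or doubtful pairs. The tests were tested on simulated data. No genome was used here.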

Additional observations from a re-analysis of the deposited data

Results flagged for a closer look

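A test of the difference between effects singled out 3 results. The effect of dying on ACO5 differed by -2.86 (log2, elongation minus meristematic zone, edgeR, adjusted p = 0.0064) in long taproots. Between transplanted and container seedlings it differed by 3.91 for ACO5 (adjusted p = 1.1e-05) and by 0.66 for ACO1 (adjusted p = 0.017), in a test chosen after the values were seen. All 3 involve the group with conflicting labels, and none of the 3 was called after near-identical libraries were merged.

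In 9 further results every library of 1 pair was above its matched group while every library of another pair was below it, and the difference between the pairs was not tested. The gap between the most raised and the most lowered pair is given on the log2 scale. For ACO1 it was 3.82 in lateral roots against the meristematic zone and 2.52 against the elongation zone in Dataset 2, where the thick and dying pair of transplanted seedlings was the lowered one. For ACO1 in taproots of Dataset 2 it was 3.12 in long against short, 1.21 in long against medium and 1.71 in rhizotrons against containers. In long against medium lateral roots of Dataset 1 it was 2.00 for ACO1 and 2.98 for ACO5, and in rhizotrons against containers 2.98 for ACO5. Both values of 2.98 come from the same groups, 2KB_dl_NN_rh, 2KB_sr_NN_rh, 2KB_dl_NN_kon and 2KB_sr_NN_kon. They are the same difference, listed under each comparison, and not separate results. Between 8 and 7 weeks the gap was 2.20 for ACO1. The same measure was 4.001 for ACO5 in dying against normal meristematic zones of Dataset 2, whose pairs are those of the test between transplanted and container seedlings above.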

How the results depend on the processing

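Of the calls, 5 of 8 for ACO1, 6 of 11 for ACO5 and 5 of 10 for the ratio held under every alternative run, and the cause of the changes below was not tested. Values are log2 fold changes, or differences of the log2 ratio. Merging near-identical libraries (fewer units) ended the calls of ACO5 in the elongation against the meristematic zone (-0.76), dying elongation zones (-4.24), rhizotron taproots of Dataset 1 (-0.58), dying by zone (-3.49) and dying by cultivation (3.93). It ended those of ACO1 in rhizotron lateral roots (0.51), rhizotron elongation zones (0.37), summer sowing (0.38) and dying by cultivation (0.68), and those of the ratio in lateral roots against the elongation zone (-1.71), long against medium taproots of Dataset 2 (-0.90), dying elongation zones (3.93) and thick and dying taproots (6.62). It turned ACO1 in long against medium taproots of Dataset 1 (0.045) and the ratio in rhizotron elongation zones (-0.21). Calls were lost over all genes too: after merging, 4 genes were called in dying elongation zones, against 10700 with all libraries, 430 against 12419 in dying taproots of Dataset 2 and 0 against 6595 in dying by zone.

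DESeq2 added calls of ACO5 in long against medium taproots of Dataset 2 (0.71), transplanted seedlings (1.199) and 8 against 7 weeks (0.96), and of ACO1 in dying taproots of Dataset 1 (0.84) and transplanted seedlings (0.60). The fit of all groups together added ACO1 in lateral roots against the elongation zone (0.33), dying taproots of Dataset 1 (0.84), dying elongation zones (-0.57), thick and dying taproots (0.54) and transplanted seedlings (0.63), and ACO5 in long against medium taproots of Dataset 1 (0.88), dying taproots of Dataset 2 (-0.89), transplanted seedlings (1.35) and 8 against 7 weeks (1.04). It ended ACO1 in rhizotron elongation zones (0.34) and dying by cultivation (0.64). limma added ACO1 in lateral roots against the elongation zone (0.33) and thick and dying taproots (0.59), and ACO5 in transplanted seedlings (1.39) and at 8 weeks (1.05). It ended ACO1 in rhizotron lateral roots (0.37) and dying by cultivation (0.45), and turned ACO1 in long against medium taproots of Dataset 1 (0.022) and thick lateral roots (-0.22). Library size alone added ACO1 in lateral roots against the elongation zone (0.41), ended it in rhizotron lateral roots (0.42), and turned ACO1 in long against medium taproots of Dataset 1 (0.032) and thick lateral roots (-0.15) and ACO5 in rhizotron lateral roots (-0.0099). Adding 1 TPM in place of 0.1 TPM, or using expected counts, moved the ratio in thick and dying taproots to 4.90 or 7.22 and in dying elongation zones to 2.70 or 4.29. Expected counts in place of TPM turned the ratio in rhizotron elongation zones (-0.034).

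Without the pair with conflicting labels, ACO5 in dying taproots of Dataset 1 was no longer called (-3.02, in a fit that called 6 genes in all, against 2543 with the pair). The ratio in long against medium taproots of Dataset 1 (-1.53) was called. ACO1 in dying taproots of Dataset 2 (-0.14), ACO1 at 8 weeks (-0.014) and the ratio in transplanted seedlings (0.53) turned. ACO5 in dying taproots of Dataset 2 was at -2.84 and ACO1 in dying by zone at -0.34. The values -2.84, -0.34 and -0.14 compare groups that were 1 unit each after merging and are given with no test. Without the pairs near-identical across groups, ACO5 in rhizotron taproots of Dataset 1 (-0.53) was no longer called and ACO1 in long against medium taproots of Dataset 1 (0.34) turned. Without the thick transplanted pair ACO1 in dying elongation zones was called (-0.76). Both of the last choices were made after seeing the data.

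Same-numbered libraries did not deviate together (median r 0.001, and 12.2% of 2205 same-numbered pairs over 0.1). With the replicate block, ACO1 in rhizotron lateral roots (0.65, edgeR, adjusted p = 0.053) and the ratio in long against medium taproots of Dataset 2 (-0.89) and in thick and dying taproots (6.61) were not called, and it changed no other call.

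Leaving out each replicate gave ranges that crossed 0 for long against short taproots of Dataset 1 (ACO1 -0.19 to 0.25, ACO5 -0.28 to 0.68, ratio -0.50 to 0.12) and Dataset 2 (ACO5 -0.080 to 0.22), long against medium taproots of Dataset 1 (ACO1 -0.11 to 0.075) and lateral roots (ratio -0.42 to 0.040), rhizotron taproots of Dataset 2 (ACO1 -0.11 to 0.017) and rhizotron elongation zones (ACO5 -0.74 to 0.75, ratio -0.70 to 1.21). Calls were lost in at least 1 of the 3 runs for ACO5 in dying taproots of Dataset 1 (-3.52 to -2.97), rhizotron taproots of Dataset 1 (-0.67 to -0.62) and dying by zone (-2.96 to -2.73), for ACO1 in rhizotron lateral roots (0.59 to 0.70), rhizotron elongation zones (0.30 to 0.45), summer sowing (0.42 to 0.58) and dying by cultivation (0.40 to 0.80), and for the ratio in long against medium taproots of Dataset 2 (-1.23 to -0.65), thick and dying taproots (6.46 to 6.76) and summer sowing (1.78 to 1.94). Depth limits ACO5 in the groups with 2 and 3 expected counts over their libraries.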
